A study of Homo sapiens with 9 samples.

Results

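Keratins are the intermediate filament proteins of epithelial cells. Each filament is built from pairs of 1 type I and 1 type II keratin, so the genes are usually expressed in matched couples. KRT5 (type II) and KRT14 (type I) form the filament of the basal layer of stratified and mammary epithelium, and KRT15 is a further type I keratin of basal cells. KRT6A, KRT6B, KRT6C (type II), KRT16 and KRT17 (type I) are the stress or wound keratins, which are induced in skin by injury, hyperproliferation and inflammation. KRT34 is a type I keratin known from the hair shaft.

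Transcripts of 9 genes, KRT5, KRT14, KRT15, KRT6A, KRT6B, KRT6C, KRT16, KRT17 and KRT34, were looked for by gene symbol among the 48803 probes of an Illumina bead array. Annotated probes were found for 6 of the 9 genes, 7 probes in all, 2 of them for KRT16. KRT6A, KRT6B and KRT17 have no listed probe here and were not analysed. The paralogs are so alike that probes may be shared: the KRT6C probe may also bind KRT6A and KRT6B transcripts, and RefSeq lists KRT6C as an older name of KRT6A. RefSeq places KRT6B, KRT6C, KRT6A and KRT5 as direct neighbours on chromosome 12, and KRT14, KRT16 and KRT17 as direct neighbours on chromosome 17, counting protein-coding genes.

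The RNA came from MCF10A, a human breast epithelial cell line that is immortal but does not form tumours. All cells, the controls included, had received a lentivirus and then puromycin selection, and the 3 groups of 3 samples carried a scramble control hairpin, the hairpin sh-34 or the hairpin sh-35. Both hairpins were made against RND1, a small GTPase gene of the actin cytoskeleton. The labels give no age of the cultures, no time of harvest and no hairpin sequence, and they do not say whether samples of a group were separate cultures, so the spread behind each p-value may be technical. Both hairpins were compared with the same scramble samples.

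Across arrays, 11473 to 12902 probes (23.5% to 26.4%) were above background, defined as a detection p under 0.01, and median signals were 46.6 to 53.4. RND1 was above background on 0 of the 9 arrays, with signals of 27.7 to 49.6 and a lowest detection p of 0.165, so its loss could not be checked. Of 10 mammary epithelial marker genes, 9 had a probe, and these 9 were above background on all 9 arrays. The summed signal of their probes was 38466 to 47788 in scramble, 30819 to 33394 with sh-34 and 27126 to 28882 with sh-35. Of the fibroblast markers, COL1A2, COL3A1, LUM and PDGFRB were above background on 0 arrays, and only DCN was on 9. The summed fibroblast signal was 5096 to 6790 in scramble, 3908 to 4883 with sh-34 and 7620 to 7847 with sh-35. Of the leukocyte markers, PTPRC and CD3E were above background on 0 arrays and CD14 and CD68 on 9, with summed signals of 1645 to 1900, 2070 to 2179 and 2392 to 2705. That sum mixes unlike changes. On the brightest probes the log2 change with sh-34 and sh-35 was +1.81 and +1.68 for CD14, and −0.54 and +0.10 for CD68. Of 4 endothelial markers, 3 were above background on 0 arrays, and the summed signal was 206 to 256, 232 to 268 and 271 to 293. The part of these levels in the keratin results was not tested. Fewer cells of a type and less RNA per cell cannot be told apart in such bulk samples.

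Mean keratin signals were highest in scramble for all 7 probes. The KRT34 probe entered the test only through the scramble group and so had to differ, and it is described apart. With sh-34, 6 of the 6 other probes, which were above background on all 9 arrays, were lower than in scramble, with log2 changes of −0.42 to −1.84 (median −0.97), against 17.3% of all 12866 tested probes called lower, 17.5% called higher and a median of +0.023 over all tested probes. With sh-35, 5 of the 6 were lower (median −0.68), against 20.1% of all tested probes called lower, 19.1% called higher and an overall median of −0.013. The sh-34 samples lay below the scramble samples without overlap for these 6 probes and for 23% of all tested probes, and the sh-35 samples for 5 of the 6 and for 25.6% of all. Probes called higher made up 50.4% of all calls with sh-34. Scaling by the array median gave 40%, and the values of the deposited series matrix gave 38.1%.

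**Figure D1:**
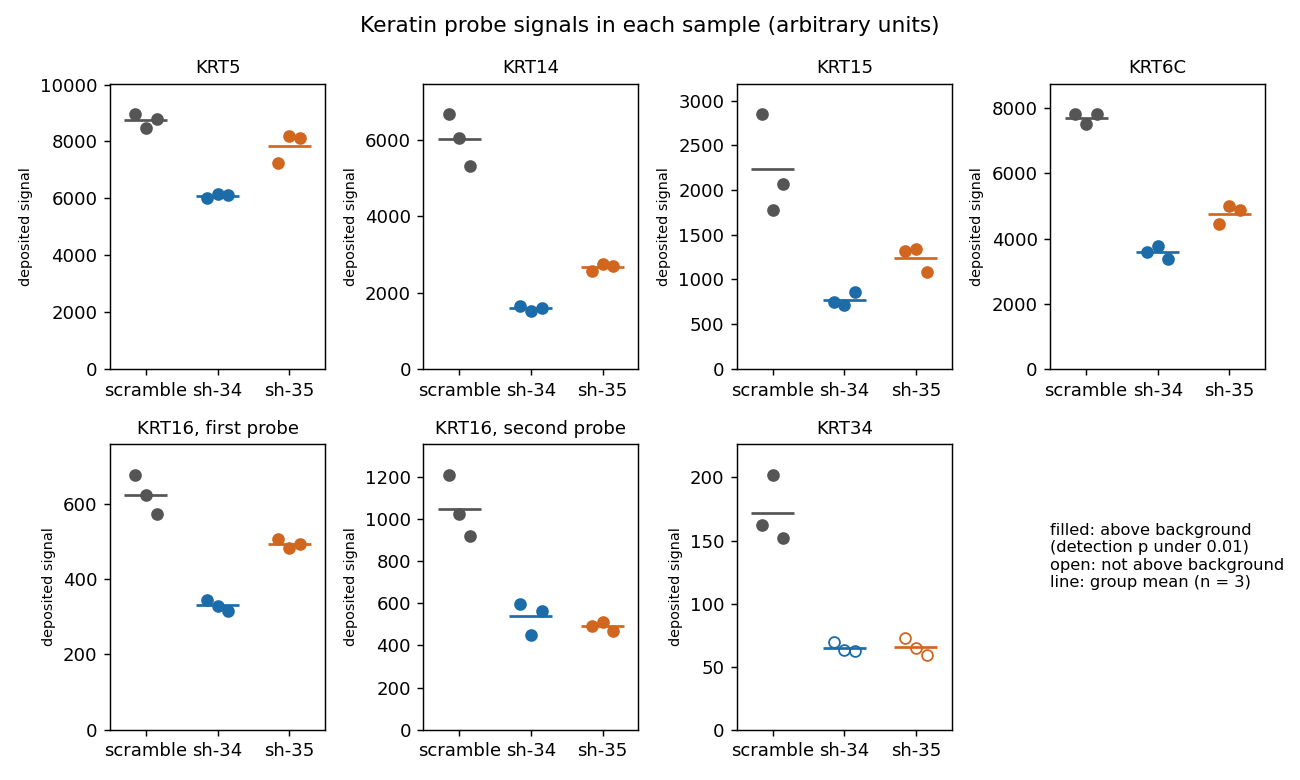
Deposited signal (arbitrary units, linear axis from 0) of each keratin probe in each of the 9 samples, with a line at the group mean (n = 3); filled points are above background (detection p under 0.01). The 3 scramble samples lie above all sh-34 samples for every probe, and KRT34 is above background only in scramble.

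Sequence upstream of the gene was listed by RefSeq (GRCh38.p14) for 2 of the 9 keratins. They are shown because no others were listed. With sh-35, described below, KRT5 read −0.04 and KRT34 was not above background. Whether these sequences bear on the keratin levels was not tested. Each is the 250 bases before the gene's start, 5′ to 3′ on the minus strand, KRT5 at chr12:52520395-52520644 and KRT34 at chr17:41382307-41382556. Capitals mark TATAAA, the related ATAAAA, and CACCC, the letters bound by KLF factors, on either strand. Near the start of KRT34 the first 2 overlap.
KRT5: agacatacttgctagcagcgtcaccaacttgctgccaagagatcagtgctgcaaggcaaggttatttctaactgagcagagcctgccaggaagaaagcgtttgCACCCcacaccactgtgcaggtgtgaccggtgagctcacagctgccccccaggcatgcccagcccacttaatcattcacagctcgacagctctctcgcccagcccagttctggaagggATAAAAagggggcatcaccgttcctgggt
KRT34: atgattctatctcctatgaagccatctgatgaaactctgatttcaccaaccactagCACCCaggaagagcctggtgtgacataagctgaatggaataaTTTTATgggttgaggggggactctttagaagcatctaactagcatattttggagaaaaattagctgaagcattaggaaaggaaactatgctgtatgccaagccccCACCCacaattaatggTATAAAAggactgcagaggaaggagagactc
KRT34 holds TATAAA at positions −31 to −26 from its start, letters found in 10.7% of 35116 promoters of the same length. KRT5 does not hold TATAAA in this window but has ATAAAA at −29 to −24, letters that 14.8% of promoters hold. KRT34 has ATAAAA at −30 to −25 and, on the other strand as TTTTAT, at −152 to −147. The KLF letters CACCC occur once in the KRT5 window, at −147 to −143, and at −194 to −190 and −47 to −43 in KRT34, and 54.7% of promoters hold it. The AP-1 letters TGAGTCA, held by 4.2% of promoters, are in neither window on either strand. The same is so of the GC box with the letters GGGCGG, which 42.6% of promoters hold. It is also so of the CCAAT box (32% of promoters) and of the AP-2 letters GCCNNNGGC (19.8%).

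Among the basal keratins, KRT14 fell the furthest. Its signals were 6684, 6072 and 5336 in scramble, 1640, 1526 and 1606 with sh-34 and 2575, 2742 and 2710 with sh-35. The 3 groups did not overlap, with sh-34 lowest and sh-35 between. On the normalized log2 scale the level went from 12.49 ± 0.05 (SD, n = 3) in scramble to 10.65 ± 0.01 with sh-34 and 11.41 ± 0.03 with sh-35. The change was −1.84 with sh-34 (SE 0.07; limma adjusted p = 6.8e-08), to 27.9% of the scramble level, and −1.08 with sh-35 (SE 0.07; adjusted p = 1.1e-06), to 47.4%. From the lowest, these changes ranked 22 and 195 among the 12866 tested probes.

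KRT5, the type II partner of KRT14, moved far less. Its signals were 8959, 8482 and 8786 in scramble, 6009, 6140 and 6123 with sh-34 and 7255, 8198 and 8107 with sh-35. The sh-34 samples lay below all others, whereas after normalization the sh-35 and scramble samples overlapped. KRT5 fell by 0.42 on the log2 scale with sh-34 (SE 0.08; by limma, adjusted p = 0.0022), to 74.6% of scramble. With sh-35 the change was −0.04 (95% interval −0.22 to +0.13; adjusted p = 0.7). The lower bound of that interval is −0.22, and KRT14 changed by −1.08 in the same samples. Within arrays, the KRT14 change exceeded the KRT5 change by −1.42 with sh-34 and −1.03 with sh-35. Neither set of differences overlapped scramble, and the exact two-sided permutation p was 0.1 for each, the smallest that 3 against 3 samples allow (adjusted p = 0.15 over 12 such tests).

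KRT15, the third basal keratin, had a wider spread in scramble than KRT5 and KRT14. Its signals were 2847, 1771 and 2069 in scramble, 747, 719 and 857 with sh-34 and 1314, 1335 and 1082 with sh-35. The groups did not overlap, although 1 scramble sample lay well above the other two. The normalized level went from 11.00 ± 0.27 (SD, n = 3) to 9.59 ± 0.11 with sh-34 and 10.26 ± 0.20 with sh-35. The log2 change was −1.42 with sh-34 (SE 0.14; limma adjusted p = 2.6e-05) and −0.74 with sh-35 (SE 0.14; adjusted p = 0.0015). Leaving out single samples moved these to between −1.56 and −1.29 and between −0.89 and −0.62.

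Among the stress keratins, KRT6C was lower with both hairpins. Its signals were 7818, 7509 and 7820 in scramble, 3593, 3764 and 3382 with sh-34 and 4436, 4992 and 4881 with sh-35. The groups again lay apart, in the order scramble, sh-35, sh-34. The normalized level went from 12.84 ± 0.12 (SD, n = 3) to 11.83 ± 0.11 and 12.24 ± 0.03. KRT6C was at 49.5% of scramble with sh-34 (log2 change −1.02, SE 0.09; limma adjusted p = 1.3e-05) and at 65.7% with sh-35 (−0.61, SE 0.09; adjusted p = 0.00031).

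KRT16, the type I partner of the KRT6 proteins, was read by a pair of probes that agreed on sh-34 and not on sh-35. The first probe (ILMN_1736760) read 676, 622 and 572 in scramble, 344, 329 and 316 with sh-34 and 507, 483 and 492 with sh-35. The second (ILMN_2228162) read 1210, 1023 and 918 in scramble, 599, 450 and 566 with sh-34 and 491, 510 and 471 with sh-35. For the first probe sh-35 lay between scramble and sh-34, while for the second both hairpins overlapped well below scramble.

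The log2 change with sh-34 was −0.91 on the first KRT16 probe (SE 0.09; limma adjusted p = 2.1e-05) and −0.92 on the second (SE 0.10; adjusted p = 6.5e-05). With sh-35 it was −0.36 on the first (SE 0.09; adjusted p = 0.0067) and −1.13 on the second (SE 0.10; adjusted p = 9.3e-06). The second probe's change differed from the first's by 0.00 with sh-34 (exact permutation p = 1) and by −0.77 with sh-35 (exact permutation p = 0.1, the smallest possible; adjusted p = 0.15). With sh-35 the KRT16 fall was therefore 1.28-fold or 2.18-fold depending on the probe. Against KRT6C, whose change with sh-35 was −0.61, the first KRT16 probe differed by +0.24 and the second by −0.52 (exact permutation p = 0.1 each), and with sh-34 both differed by +0.10 with overlapping values (exact permutation p = 0.4 and 0.6).

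Probes annotated to processed or duplicated copies of stress keratin genes were read as well. A KRT16P2 probe, for a KRT16 pseudogene, read 486 to 529 in scramble, 281 to 313 with sh-34 and 428 to 530 with sh-35. Its log2 change was −0.77 with sh-34 (SE 0.13; limma adjusted p = 0.00093) and −0.11 with sh-35 (SE 0.13; adjusted p = 0.54), and sh-35 overlapped scramble. A second KRT16P2 probe was above background on 2 scramble arrays and on 0 hairpin arrays and was not tested. The KRT17P5 pair of probes was above background on 0 arrays. Which transcript each of these probes binds was not tested.

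KRT34 was measurable in scramble alone. Its signals were 162, 202 and 152 in scramble, 69.8, 62.8 and 62.6 with sh-34 and 72.3, 64.6 and 59.5 with sh-35. The scramble samples were above background (detection p of 0.00132 to 0.00395), and the hairpin samples, with detection p of 0.0382 to 0.0922, were not. KRT34 was at least 1.51-fold lower with sh-34 and at least 1.48-fold lower with sh-35, set against the dimmest signal called above background on each array. The fitted log2 changes of −1.73 and −1.82 rest on signals below that level, and no p-value is given because the filter fixed the outcome.

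**Figure D2:**
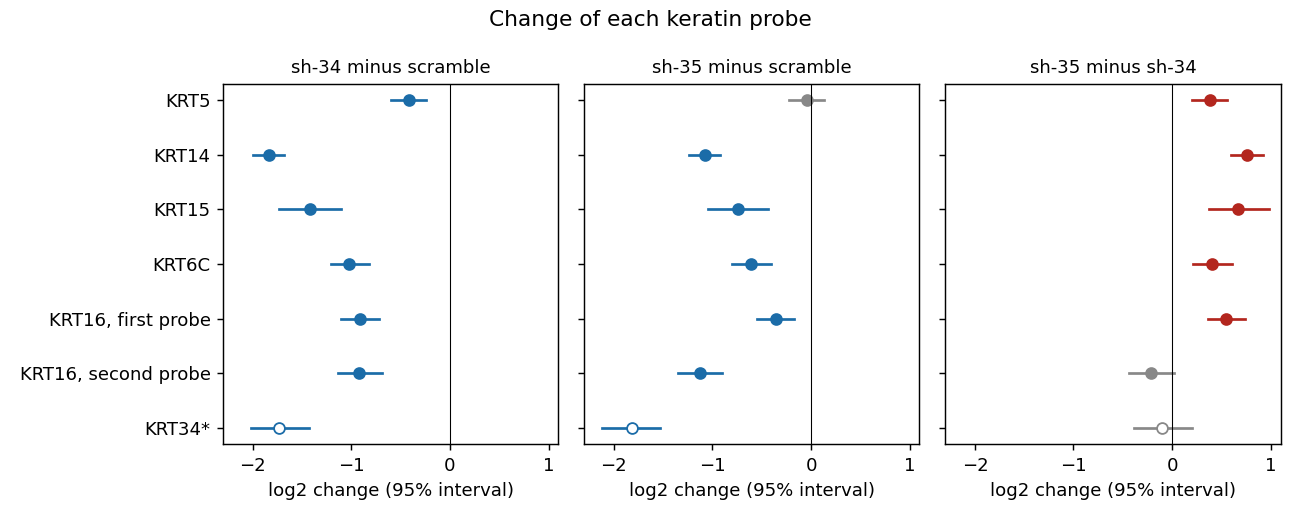
Log2 change (points) with its 95% interval (lines) from the limma model for each keratin probe in 3 comparisons of 3 against 3 samples; blue is lower and red higher at an adjusted p under 0.05, and grey did not pass. KRT34, marked by a star and open points, was not above background with either hairpin, so its colour against scramble is no test result. KRT5 with sh-35 lies at −0.04.

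The hairpins were then compared with each other. Of the 7 probes, 5 were higher with sh-35 than with sh-34, against 19.1% of all tested probes called higher, 0 were lower (20.1%) and 2 did not pass. KRT14 was 1.7-fold higher with sh-35 (log2 difference +0.76, 95% interval +0.60 to +0.92; limma adjusted p = 1.4e-05), and KRT15 1.6-fold (+0.67, +0.37 to +0.98; adjusted p = 0.0029). The first KRT16 probe differed by +0.55 (+0.36 to +0.74; adjusted p = 0.00047), KRT6C by +0.41 (+0.21 to +0.61; adjusted p = 0.004) and KRT5 by +0.38 (+0.20 to +0.56; adjusted p = 0.0036). In these 5 the sh-35 and sh-34 samples did not overlap, as in 24% of all tested probes.

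The second KRT16 probe differed by −0.21 between hairpins (95% interval −0.44 to +0.02; limma adjusted p = 0.13). Without sh-34 replicate 2 it passed, at −0.32 (adjusted p = 0.025). KRT34 was below background with both hairpins, and no difference between them is given. Probes called higher made up 48.7% of all calls in this comparison and 60.8% in the series matrix values, and the 5 keratin calls held there.

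With the hairpins averaged against scramble, 6 of the 6 probes measured on all arrays were lower (19.5% of all tested probes were), from −1.46 for KRT14 to −0.23 for KRT5. The KRT5 call (limma adjusted p = 0.022) was lost without scramble replicate 2 (adjusted p = 0.052), without scramble replicate 3 (0.11) and without the filter on dim probes (0.065). The authors' deposited table of 358 probes holds 4 of the 7. In the authors' deposited table the ratio to scramble was 0.265 with sh-34 and 0.445 with sh-35 for KRT14, and 0.464 and 0.617 for KRT6C. For the second KRT16 probe the authors' deposited table gives 0.512 and 0.47, and for KRT34 0.381 and 0.382, the latter from signals not above background with either hairpin.

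**Figure D3:**
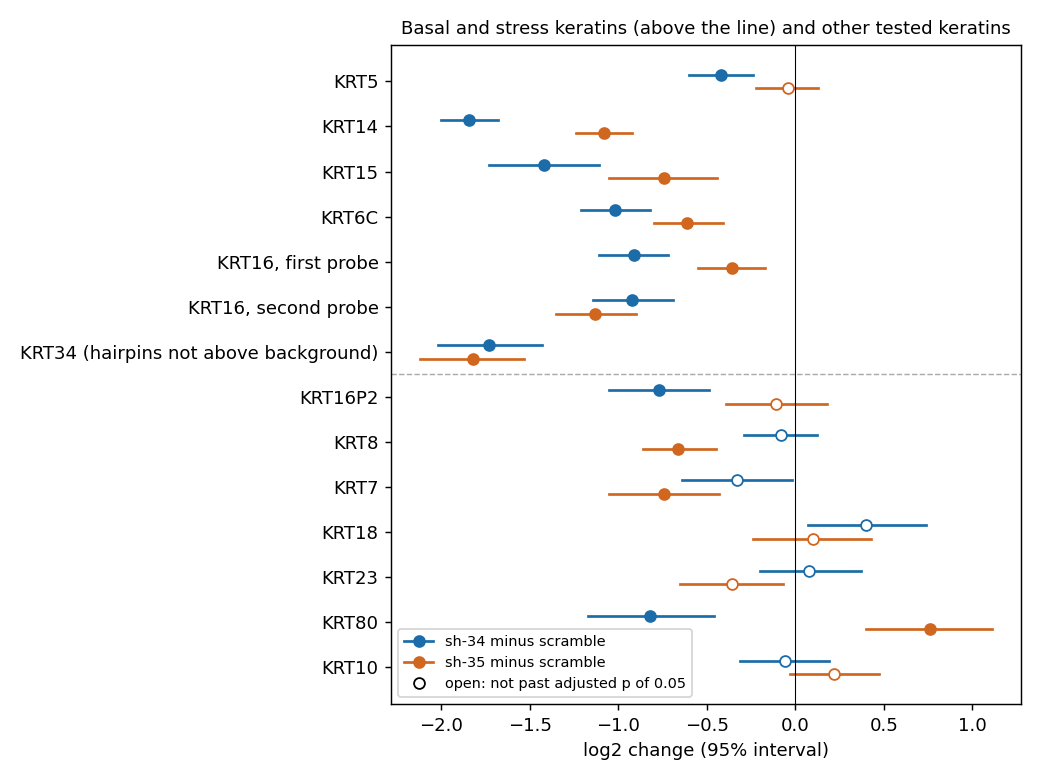
Log2 change against scramble with its 95% interval for the 7 basal and stress keratin probes (above the dashed line) and the brightest probe of each other tested keratin gene or pseudogene, sh-34 in blue and sh-35 in orange (n = 3 a group); open points did not pass an adjusted p of 0.05. KRT80 lies on opposite sides of 0, at −0.82 and +0.76, and KRT8 and KRT7 are lower with sh-35. The KRT80 level with sh-34 was near background. The filled KRT34 points are no test result, since the filter fixed the outcome.

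Of 7 simple and luminal keratins, 5 were tested. With sh-34, 1 fell, 0 rose and 4 did not pass (median −0.08), where 17.3% of all tested probes were lower and 17.5% higher. With sh-35, 2 fell, 1 rose and 2 did not pass (median −0.36), where 20.1% of all were lower and 19.1% higher. Whether these keratins differ as a group from the basal and stress keratins was not tested. KRT8, of simple epithelium, read −0.08 with sh-34 (SE 0.09; limma adjusted p = 0.52) and fell by 0.66 with sh-35 (SE 0.09; adjusted p = 0.00021). KRT7 read −0.33 (SE 0.14; adjusted p = 0.096) and fell by 0.74 (adjusted p = 0.0016). KRT18, the type I partner of KRT8, did not pass with either, at +0.40 and +0.10 (SE 0.15 each). Between hairpins KRT8 was lower with sh-35 (−0.57; adjusted p = 0.00055) where the 5 basal and stress probes were higher. Of 14 suprabasal and other epithelial keratins, 1 was tested, KRT10, a keratin of differentiating epidermis, which read −0.06 and +0.22 and did not pass. Of 16 hair keratins other than KRT34, 12 had a probe and 0 were tested.

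Genes that tie keratin filaments to junctions were next. Of 9 tested linkers, 3 fell, 2 rose and 4 did not pass with sh-34 (median −0.15), and 5 fell, 1 rose and 3 did not pass with sh-35 (median −0.27), beside the same shares of all tested probes: 17.3% lower and 17.5% higher with sh-34, 20.1% and 19.1% with sh-35. DST, which anchors keratin at hemidesmosomes, changed by −0.85 with sh-34 (SE 0.14; by limma, adjusted p = 0.00076) and by −1.22 with sh-35 (adjusted p = 4.3e-05) on its brightest probe. Of the 3 other DST probes, 1 read −0.26 with sh-34 and did not pass. PLEC, a plakin with a like role, fell by 0.34 (SE 0.10; adjusted p = 0.021) and by 0.63 (adjusted p = 0.00041), while the cornified envelope plakin PPL rose by +0.37 and +0.55 (SE 0.11 each). JUP, the junction protein plakoglobin, fell by 1.26 with sh-35 (SE 0.09; adjusted p = 2.1e-06). With sh-34 it fell by 0.28 (adjusted p = 0.038), but its other probes read −0.16 and +0.16 and did not pass.

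Of 8 hemidesmosome and basal adhesion genes 5 were tested. With sh-34, 4 fell and 1 rose (median −0.41), and with sh-35, 5 fell (median −0.33), where 17.3% and 20.1% of all tested probes were lower. The integrin gene ITGA6 was lower by −0.82 with sh-34 (SE 0.10; by limma, adjusted p = 0.00013) and by −0.30 with sh-35 (adjusted p = 0.036), and it was higher with sh-35 than with sh-34 (+0.52; adjusted p = 0.0021), the same order as KRT14. Of the 5 tested genes, ITGA6 alone was called higher with sh-35 than with sh-34. In that comparison 1 gene was called lower and 3 did not pass, where 19.1% of all tested probes were higher and 20.1% lower. The list median was +0.17, against −0.025 over all tested probes. That order is therefore not shared by every gene of the list, and whether it holds for the list as a whole was not tested. LAMB3, a laminin-332 chain, fell by 0.66 and 0.45 (SE 0.09 each) on its brightest probe, while a second probe read +0.16 and +0.32 and did not pass.

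The genes whose profile over the 9 arrays was nearest to each keratin were found among 8925 others by Pearson's r on normalized log2 values. The 9 arrays fall into 3 groups, which all points share, so r is given as a description only. Nearest to KRT14 were CYP27B1, which makes active vitamin D (r = 0.995; log2 changes −1.34 with sh-34 and −0.80 with sh-35), and WSB2 (r = 0.991). KRT6C was nearest to NOCT (r = 0.987) and the lipase gene LIPG (r = 0.982), KRT15 to MFAP3 (r = 0.981) and TIGAR (r = 0.978), and KRT5 to UBE2D4 (r = 0.987) and CDC26 (r = 0.981). Nearest to the brighter, second KRT16 probe were KLK7, a protease of the epidermis (r = 0.984), and S100A3 (r = 0.984). KRT34 was nearest to SLC3A2, an amino acid transporter subunit (r = 0.993), and ARID3B (r = 0.988), but its probe was not above background on 6 of the 9 arrays, so its r rests mostly on unmeasured levels.

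**Figure D4:**
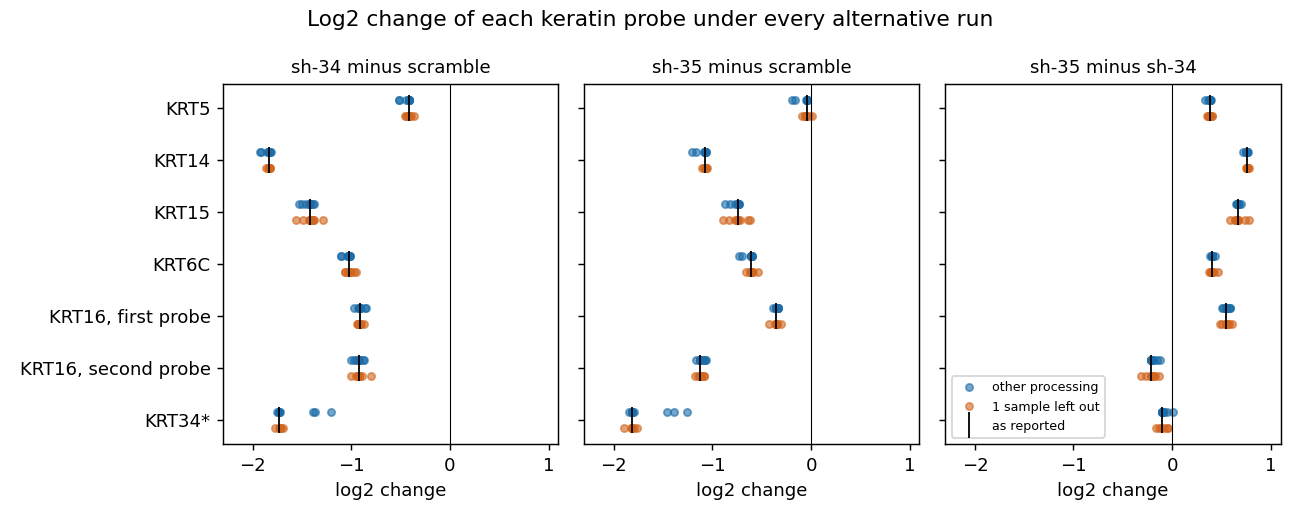
Log2 change of each keratin probe as reported (black bar), under other processing (blue) and with 1 sample left out (orange), for 3 comparisons. Points for KRT14, KRT15, KRT6C and KRT16 against scramble stay below 0 throughout, while KRT5 with sh-35 runs from −0.19 to +0.01; KRT34, marked by a star, was not above background with either hairpin.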

How the data were processed

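MCF10A RNA from 9 samples, 3 a group, was made into biotin-labelled cRNA and read on Illumina bead arrays, per the labels' protocols. BeadStudio and Partek are named, without versions, per the submitters' processing notes. The deposited signal table holds an intensity and a detection p-value per sample for 48803 probes, per the file headers. Its medians differed between arrays and no value was below 0, so the intensities were taken as neither background subtracted nor normalized. The deposited series matrix holds log2 values with a median of 5.62. With both centred on each probe's median, they equal the log2 of the same intensities to within 6e-06. A deposited table of 358 probes gives the authors' ratio of each hairpin to scramble with an unadjusted p-value, and its other columns were not used.

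Probes were named from the array's annotation table, which gives 1 symbol for 28098 probes and several for 13 and does not list 20692. Signals were corrected with limma 3.58.1 (R 4.3.3) by the normal-exponential model with noise estimated from the detection p-values and an offset of 16, then quantile normalized on the log2 scale. The 12866 probes with a detection p under 0.01 on at least 3 of the 9 arrays entered 1 limma model of 3 groups, with 6 residual and 5.19 prior degrees of freedom and Benjamini-Hochberg adjustment over all of them. The code was tested on simulated data, where the share of unchanged probes among the calls was above the nominal level, so adjusted p-values near the threshold are less secure than they read. An adjusted p under 0.05 was called a change. A gene not above background in a whole group gets a lower bound on its fold, set on each array against the dimmest signal called above background. Differences between probes were tested by exact permutation, whose smallest p for 3 against 3 samples is 0.1.

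Replicate numbers were not used as pairs: deviations from the group mean correlated by −0.0141 to 0.059 over 9 pairs of equal number, with 0 pairs over 0.1. No array position or scan time was available to this work, so no batch was examined. The number of arrays limits the precision. The keratins and the gene lists were chosen with earlier results of these data known. The naming rule took every probe of the 9 keratins, up to 4 genes of each list with the smallest p for both hairpins together, and for each keratin the 2 genes of most similar profile; the pseudogene probes and motifs were added after the data were seen, and not every gene allowed is named. Alternatives covered normalization, background correction, the series matrix values, probe filters, 1 probe per gene, robust eBayes with a trend, a replicate block and leaving out each sample.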

Additional observations from a re-analysis of the deposited data

Results flagged for a closer look

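For 5 of the 7 probes the test of the difference between hairpins passed (limma, adjusted over all tested probes), so that the same comparison with scramble gave unequal changes. The log2 difference, sh-35 minus sh-34, was +0.76 for KRT14, +0.67 for KRT15, +0.55 for the first KRT16 probe, +0.41 for KRT6C and +0.38 for KRT5. In each, the 3 sh-35 samples lay above the 3 sh-34 samples. Groups of 3 samples are too small for a test of single outlying samples, and none was made.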

How the results depend on the processing

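The number of keratin probes called was 6 to 7 of those tested for sh-34, 5 to 6 for sh-35, 5 to 7 for both hairpins together and 4 to 6 between hairpins over all alternatives. KRT34 is counted in all tallies of this section wherever it was tested. Where the filter on dim probes was used, its calls against scramble were fixed in advance. Those calls are therefore no measure of how stable the results are. The counts against scramble were 1 lower where KRT34 was not tested (detection on all 9 arrays, or 1 scramble sample left out), and the one for both hairpins was 5 without scramble replicate 2 or 3, where KRT5 was lost too. It was 6 without the filter on dim probes, where KRT5 alone was lost. With 1 probe per gene the first KRT16 probe was not tested. Between hairpins the count was 4 with 1 probe per gene, 6 without sh-34 replicate 2 and 5 otherwise. Of the single log2 changes, 298 of those under other processing and 236 of those with 1 sample left out kept their direction and their side of the threshold. A sign changed for KRT5 with sh-35, which ranged from −0.09 to 0.01 with 1 sample left out (0.01 without scramble replicate 3), and for KRT34 between hairpins, at 0.01 in the series matrix values. Neither had passed, and the cause was not tested. With the replicate number as a block, 7, 6, 7 and 5 keratin probes were called for sh-34, sh-35, both and between hairpins, and 4343, 4957, 4769 and 4954 probes in all, against 4477, 5045, 4911 and 5038 without it; no keratin call changed. The fitted change of KRT34 with sh-34 ran from −1.75 to −1.21 over other processing, since its hairpin signals lie below background, which limits what can be said of it.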

Other observations

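Transcription factors known to act on keratin genes were counted next. With sh-34, 5 of the 13 tested genes fell and 2 rose, while 6 did not pass (median −0.07), and with sh-35 3 fell and 2 rose, while 8 did not pass (median −0.02). Over all tested probes, 17.3% were lower and 17.5% higher with sh-34, and 20.1% and 19.1% with sh-35. SOX15, a factor of basal epithelial cells, changed by −0.72 with sh-34 (SE 0.08; by limma, adjusted p = 3.9e-05) and by −1.35 with sh-35 (adjusted p = 3.9e-07). KLF5, of proliferating epithelium, fell by 0.81 and 0.77 (SE 0.14 each), and KLF4, of differentiating epithelium, rose by +0.97 and +0.50 (SE 0.10 each). TFAP2A fell by 0.30 and 0.40 (SE 0.08 each) on its brightest probe, and 1 of its other probes did not pass with either hairpin.

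Among other intermediate filament genes, 4 were tested. With sh-34, 1 rose, 0 fell and 3 did not pass (median +0.11), and with sh-35, 3 rose, 0 fell and 1 did not pass (median +0.33), where 17.5% and 19.1% of all tested probes were higher. LMNB1, a nuclear lamin gene, read +0.14 with sh-34 (SE 0.14, limma adjusted p = 0.47) and rose by +1.44 with sh-35 (adjusted p = 1.6e-05). VIM, encoding vimentin of mesenchymal cells, was higher by +0.49 with sh-34 (SE 0.09, by limma, adjusted p = 0.0012) and by +0.36 with sh-35 (adjusted p = 0.0062). The nuclear lamin gene LMNA read +0.07 with sh-34 and rose by +0.30 with sh-35 (SE 0.09; adjusted p = 0.024), while a second probe read +0.10 and +0.11 and did not pass.

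KRT80, a type II keratin, went in opposite directions with the 2 hairpins. It fell by 0.82 on the log2 scale with sh-34 (SE 0.16; limma adjusted p = 0.0026) and rose by +0.76 with sh-35 (adjusted p = 0.0033), and the difference between hairpins was +1.57 (adjusted p = 2.4e-05). KRT80 is singled out after its values were seen. Its level with sh-34, 6.44 on the normalized log2 scale, was near background. For comparison, a KRT16P2 probe at 6.41 with sh-35 was above background on 0 arrays of that group. The sizes of the KRT80 fall with sh-34 and of its difference between hairpins therefore rest partly on dim signals.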
